A study of Mus musculus with 20 samples.

Results

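A set of 6 target genes of the liver X receptors (LXR) that move cholesterol or remodel phospholipids, Abca1, Abcg1, Apoe, Pltp, Lpcat3 and Arl4c, was followed across 20 RNA-seq libraries of mouse articular chondrocytes, the cells of joint cartilage. These 6 genes were taken by gene name from the table of 54532 genes, and all 6 were among the 12752 genes tested. Chondrocytes of 6-week-old mice spent 48 hours in 1 of 4 conditions with 5 libraries each: 2 µM GW3965, 20 µM 25-hydroxycholesterol-3-sulfate (25HC3S), 20 µM 25-hydroxycholesterol (25HC), or the DMSO Vehicle. GW3965 is a synthetic LXR agonist that is not a sterol, 25HC is an oxidised cholesterol, and 25HC3S carries a sulfate on the 3-hydroxyl group of 25HC. The sources used here do not give the strain, the number of animals or the way the cells were isolated, nor whether the libraries within a group are separate animals or cultures. The spread behind each p-value is therefore that between libraries and may be technical.

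LXR are nuclear receptors, encoded by Nr1h3 and Nr1h2, that bind oxysterols and, paired with a retinoid X receptor, switch on genes that lower the free cholesterol of a cell. Abca1 and Abcg1 encode membrane transporters that pass cholesterol and phospholipid out of the cell, Abca1 to lipid-poor apolipoprotein and Abcg1 to formed high-density lipoprotein. Apoe encodes a secreted apolipoprotein that takes up such lipid, and Pltp a secreted protein that transfers phospholipid between lipoproteins. Lpcat3 encodes an enzyme of the endoplasmic reticulum that puts polyunsaturated fatty acids into phospholipids, and Arl4c a small GTPase of the ARF family that is an LXR target in mouse and human cells.

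The receptor pair is known to prefer a direct repeat of AGGTCA with 4 letters between the copies, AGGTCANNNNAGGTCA. The 250 bases before the annotated starts in RefSeq (build GRCm38.p6), where 5 of the 6 genes had an entry, were searched for it on both strands, counting mismatches over the 12 fixed letters. The closest stretch had 3 mismatches in Abca1 and Arl4c, which 18.5% of all 32817 such windows of the genome equalled or bettered, 4 in Lpcat3 and in the closest of 3 Apoe windows (70.6%), and 5 in Pltp (99.5%). In Abca1 it lay 52 to 67 bases before the start, and in Arl4c 50 to 65 bases. The stretch of Abca1 was also found in front of Fasn, letter for letter, and in front of Srebf1 apart from a pair of letters. Both are lipid-synthesis genes and LXR targets outside the 6. The pattern GGGTTACTNNCGGTCA was made from the letters that the Abca1 and Srebf1 stretches share, after the sequences had been read. Both of these genes therefore hold it by construction. It was in 3 of the 32817 windows (0.00914%), those of Abca1, Srebf1 and Fasn, a share that does not measure how rare such a match is. The 4 stretches are shown because the 3 shared ones stand in front of genes that were higher in GW3965 in the values below, and Arl4c gives the other member with 3 mismatches. Capitals mark the 16 letters aligned to the repeat, and each is printed from the plus strand of GRCm38, while all 4 genes are on the minus strand.
Abca1, chr4:53159935-53159974: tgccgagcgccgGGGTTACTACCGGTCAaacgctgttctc
Srebf1, chr11:60210626-60210665: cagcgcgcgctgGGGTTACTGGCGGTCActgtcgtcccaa
Fasn, chr11:120824745-120824784: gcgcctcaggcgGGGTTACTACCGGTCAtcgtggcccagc
Arl4c, chr1:88702229-88702268: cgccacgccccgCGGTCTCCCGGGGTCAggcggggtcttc
A match describes letters in this window, and binding was not measured here.

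Levels are given as the authors' FPKM, fragments in a gene divided by its length and by the size of the library, and the libraries held 14653777 to 19365220 fragments in genes. In 4 libraries, Vehicle replicates 2, 3 and 4 and 25HC3S replicate 1, 237 to 1171 genes had exactly 1 fragment, against 1808 to 2057 in the other 16. Mitochondrial genes took 0.369% to 4.07% of fragments in the 4 and 0.889% to 1.41% in the 16. Differences and tests of the 6 genes are therefore given with these libraries and without them, when Vehicle rests on replicates 1 and 5. The 13 chondrocyte markers were all present, with summed levels of 1917 to 5367 FPKM in the 4 libraries and 3466 to 5112 FPKM in the 16. The 15 macrophage markers summed to 1023 to 1190 FPKM in GW3965, 440 to 837 FPKM in 25HC3S, 816 to 1167 FPKM in 25HC and 505 to 1176 FPKM in Vehicle, so the cultures held macrophage RNA too. Adipocyte markers summed to 15.2 to 52.7 FPKM in the 4 libraries and 26.5 to 58.7 FPKM in the 16. Over all 20 libraries osteoblast and osteocyte markers summed to 96.7 to 161 FPKM, and synovial lining and tendon markers to 68.8 to 143 FPKM. Endothelial and skeletal muscle markers summed to at most 6.53 and 7.63 FPKM. Lep, an adipocyte marker, and Hba-a1 and Hbb-bs of red cells were at 0 in all 20 libraries.

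**Figure D1:**
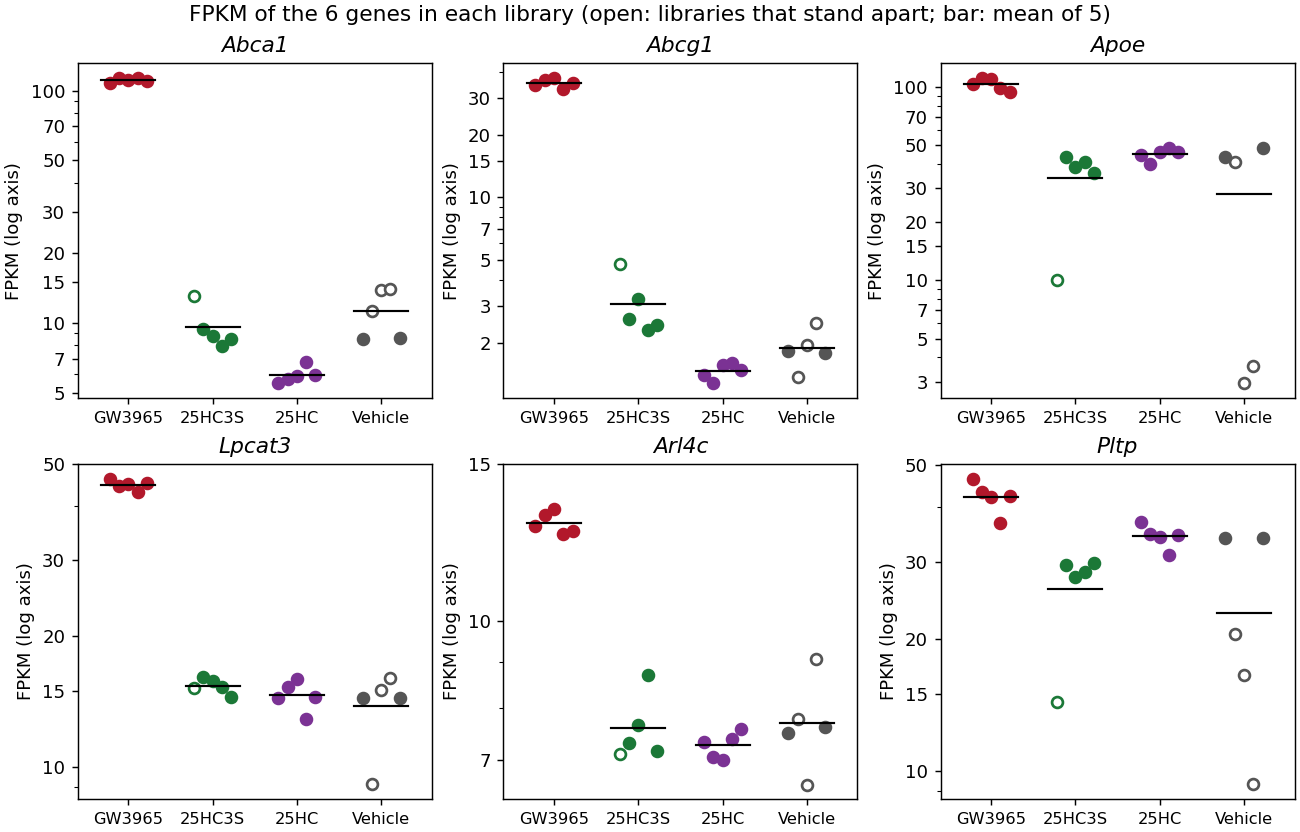
FPKM of each of the 6 genes by library, on log axes, with groups from left to right GW3965, 25HC3S, 25HC and Vehicle; points are libraries, open points are the 4 libraries that stand apart, and bars are means of 5. For 5 of the 6 genes the lowest GW3965 library lay above every library of the other groups, as for 1.64% of all genes tested, and for Pltp the lowest GW3965 library, at 36.8 FPKM, lay just under the highest 25HC library, at 36.9 FPKM.

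GW3965 against Vehicle asks how far these targets move under a direct LXR agonist. All 6 genes rose, and Abcg1 and Abca1 had the highest and second-highest log2 differences of all 12752 genes. Differences and tests are from limma on log2(FPKM + 1), with p adjusted by Benjamini-Hochberg over all genes tested and a call at an adjusted p under 0.05. In this comparison 3.49% of all genes tested were called higher, and 3.98% without the 4 libraries, where all 6 were again called. On this scale the changes of low genes are understated.

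Abca1 (ENSMUSG00000015243, chr4:53030787-53159895, minus strand, in the coordinates of the authors' table, which match the GENCODE M21 annotation of build GRCm38 for all of the 6 but Abcg1) had 108, 113, 110, 113 and 110 FPKM in GW3965, against 8.53, 11.3, 13.8, 14.0 and 8.60 FPKM in Vehicle. The groups were far apart, and within Vehicle the 3 libraries that stand apart were the 3 highest. The mean was 111 ± 2.10 FPKM in GW3965 and 11.2 ± 2.66 FPKM in Vehicle (SD, n = 5 each), a 9.86-fold ratio. On the log2 scale GW3965 was higher by 3.22 ± 0.13 (SE), with an adjusted p of 3.09e-12, and 3.55 ± 0.06 without the 4 libraries, with an adjusted p of 2.98e-15.

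Abcg1 (ENSMUSG00000024030, chr17:31057698-31115777, plus strand) started from the lowest level of the 6 and ranked first of all genes tested. It had 34.7, 36.6, 37.3, 33.2 and 35.3 FPKM in GW3965, against 1.83, 1.36, 1.94, 2.48 and 1.79 FPKM in Vehicle. In Vehicle these levels rest on 80 to 158 fragments a library, and the groups did not come near each other. It rose by 3.67 ± 0.12 on the log2 scale, with an adjusted p of 1.61e-13, and the means gave an 18.8-fold ratio. Leaving the 4 libraries out gave 3.70 ± 0.08, with an adjusted p of 3.12e-14.

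Apoe (ENSMUSG00000002985, chr7:19696109-19699188, minus strand) had 104, 111, 111, 99.5 and 94.5 FPKM in GW3965, against 43.7, 40.9, 2.94, 3.61 and 48.3 FPKM in Vehicle. Every GW3965 library was higher than every Vehicle library, and Vehicle was split, with replicates 3 and 4 far under the other 3. With all libraries the log2 difference was 2.57 ± 0.60, with an adjusted p of 0.0147, but 0.149 when only these groups were fitted. Leaving the 4 libraries out gave 1.16 ± 0.08, with an adjusted p of 1.44e-07, and the means were 104 ± 7.12 FPKM in GW3965 and 46.0 ± 3.28 FPKM in Vehicle (SD, n = 5 and 2), a 2.26-fold ratio. The size of the Apoe difference thus depends on Vehicle replicates 3 and 4, while its direction held with and without them.

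Pltp (ENSMUSG00000017754, chr2:164839518-164857711, minus strand) had 46.4, 43.2, 42.1, 36.8 and 42.4 FPKM in GW3965, against 34.0, 20.5, 16.6, 9.34 and 34.0 FPKM in Vehicle. GW3965 was higher throughout, and the 3 low Vehicle values were those of replicates 2, 3 and 4. The log2 difference was 0.99 ± 0.26 (adjusted p = 0.0272) with all libraries and 0.30 ± 0.07 (adjusted p = 0.0136) without the 4. The first of these calls was lost without Vehicle replicate 3 (0.0674) or 4 (0.0551), without GW3965 replicate 1 (0.0689), 2 (0.0607), 3 (0.0572) or 5 (0.0539), with no filter on low values (0.0618) and when only these groups were fitted (0.176). Pltp overlaps Ctsa, a lysosomal protease gene on the other strand, over 1515 bases, and the strand setting of the counting is not stated in the sources used here, so fragments of Ctsa could stand in Pltp. Ctsa had 55.8 to 67.6 FPKM in the 4 libraries and 90.9 to 102 FPKM in the other 16. Its log2 difference in GW3965 against Vehicle was 0.47 ± 0.14 with all libraries, with an adjusted p of 0.0502. Vehicle replicates 1 and 5 had 96.3 and 95.5 FPKM Ctsa, and the GW3965 libraries had 94.5 to 100 FPKM. The part of Ctsa in the Pltp values was not tested.

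In the 3 libraries with the least Apoe, Vehicle replicates 3 and 4 and 25HC3S replicate 1, the 15 macrophage markers also had their lowest sums, 507, 505 and 440 FPKM, where the other 17 libraries had at least 692 FPKM. In those 3 the chondrocyte markers had their lowest sums as well. The part of the cell mixture in the Apoe and Pltp levels was not tested, and in bulk RNA fewer cells of a type and less RNA per cell cannot be told apart. In GW3965 the macrophage sum was 1023 to 1190 FPKM, against 991 and 1176 FPKM in Vehicle replicates 1 and 5, and Apoe was higher in all 5 of those GW3965 libraries than in both of those Vehicle libraries.

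**Figure D2:**
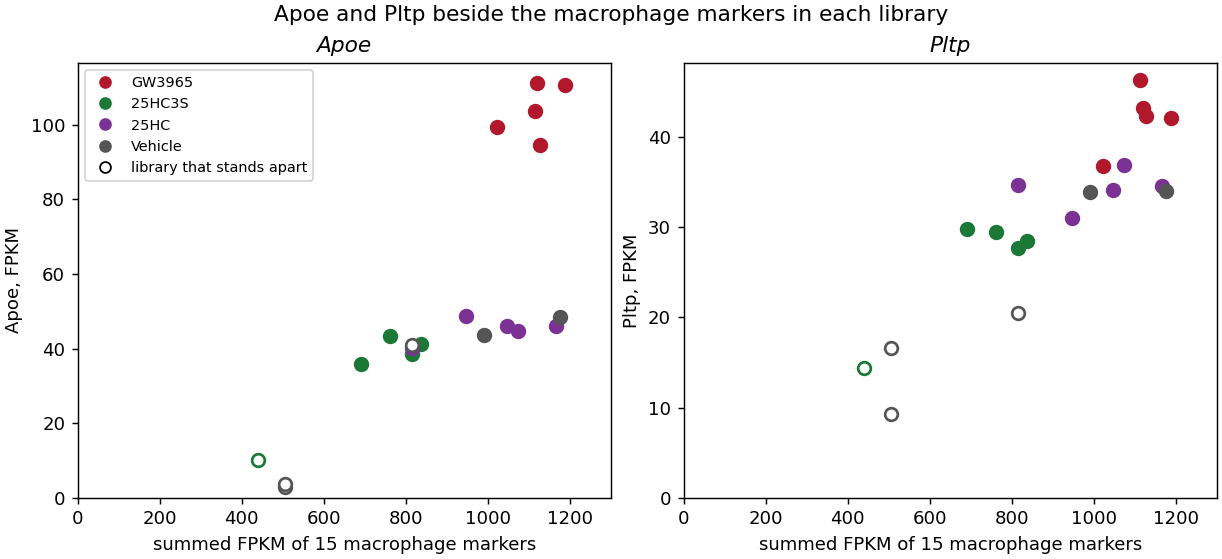
Apoe (left) and Pltp (right) in FPKM against the summed FPKM of 15 macrophage markers; each point is a library, coloured by group, and open points are the 4 libraries that stand apart. The lowest 3 Apoe values, 2.94 to 10.1 FPKM, belong to the 3 libraries with the lowest marker sums, and GW3965 libraries had Apoe of at least 94.5 FPKM at marker sums of 1023 to 1190 FPKM, where the highest sums in 25HC and Vehicle were 1167 and 1176 FPKM.

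Lpcat3 (ENSMUSG00000004270, chr6:124663027-124704418, plus strand) had 46.0, 44.3, 44.8, 43.0 and 45.1 FPKM in GW3965, against 14.4, 9.15, 15.1, 16.1 and 14.5 FPKM in Vehicle. No library of one group reached the other, and the Vehicle libraries that stand apart were on both sides of the remaining ones. Lpcat3 rose by 1.64 ± 0.10 on the log2 scale, with an adjusted p of 2.91e-09, and 1.57 ± 0.06 without the 4 libraries, with an adjusted p of 5.74e-11. The level in GW3965 was 3.23-fold that in Vehicle. Lpcat3 overlaps Emg1 on the other strand over 334 bases, and Emg1 averaged 7.02 FPKM over all libraries.

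Arl4c (ENSMUSG00000049866, chr1:88673125-88702221, minus strand) had the smallest ratio of the 6 with all libraries, while without the 4 libraries Pltp had the smallest log2 difference. It had 12.8, 13.1, 13.3, 12.5 and 12.6 FPKM in GW3965, against 7.49, 7.77, 6.56, 9.06 and 7.62 FPKM in Vehicle. The lowest GW3965 library was 1.38-fold above the highest library of any other group. Arl4c rose by 0.68 ± 0.07 on the log2 scale, with an adjusted p of 3.04e-06, and 0.70 ± 0.06 without the 4 libraries, with an adjusted p of 7.40e-07.

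The groups did not overlap for any of the 6 in this comparison, as for 3.79% of all genes tested in the higher direction. Ranked by log2 difference, Abcg1 was 1st, Abca1 2nd, Apoe 4th, Lpcat3 13th, Pltp 100th and Arl4c 378th of 12752. Without the 4 libraries Abcg1 was 1st, Abca1 2nd, Lpcat3 10th, Apoe 22nd, Arl4c 106th and Pltp 481st. The median over the 6 was 2.11, and 1.36 without the 4 libraries, where the median over all genes tested was 0.02 and 0.0071.

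**Figure D3:**
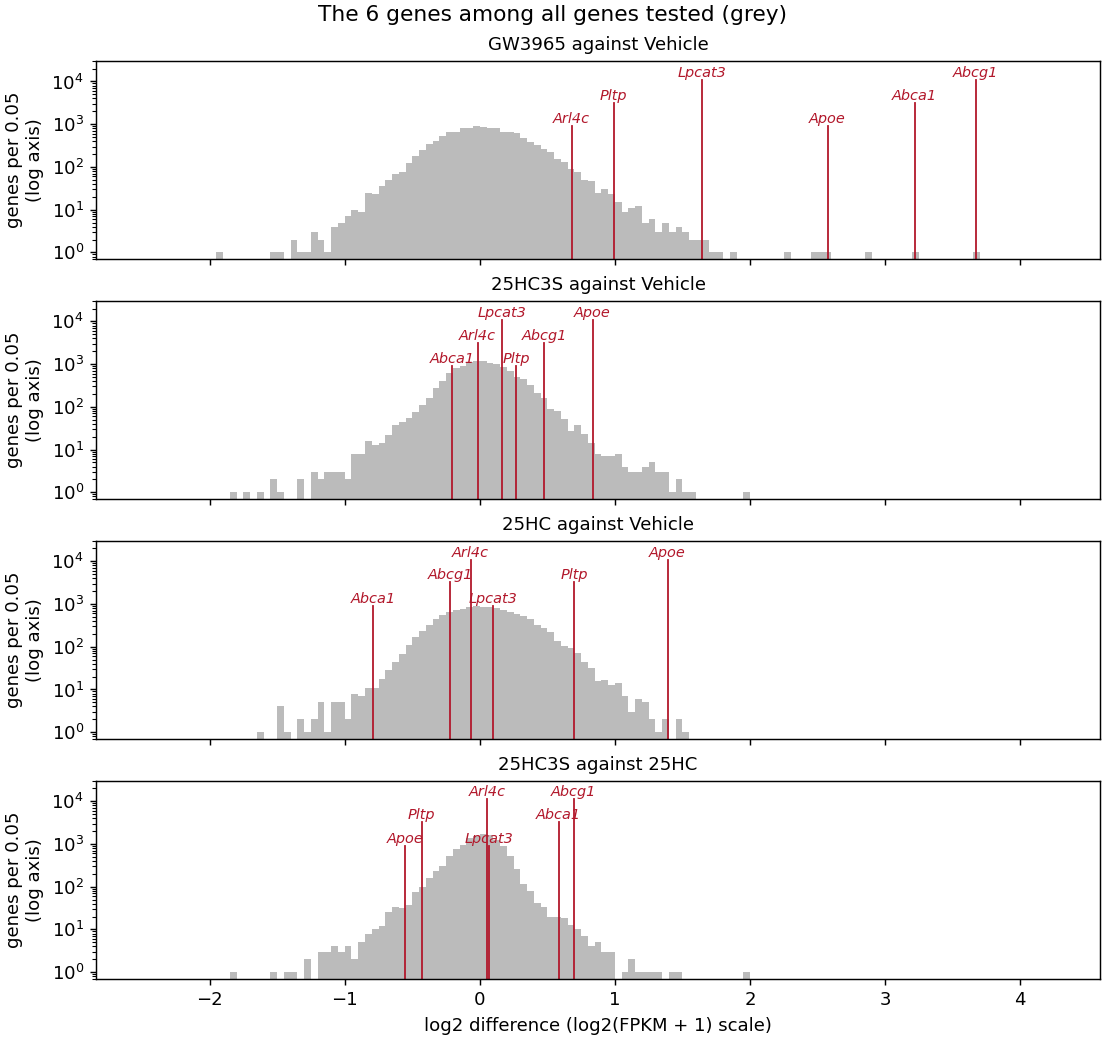
Number of genes (log axis, bins of 0.05) by log2 difference for 4 comparisons, with the 6 genes marked in red over the grey distribution of all 12752 genes tested. In GW3965 against Vehicle Abcg1 and Abca1 lie at the far right end, at 3.67 and 3.22, while in 25HC3S against 25HC they lie at 0.70 and 0.58 and Apoe and Pltp on the other side of 0.

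Other LXR targets were looked at beside the 6. Of 16 listed, 11 were tested, of which 7 were higher in GW3965 than in Vehicle and 0 lower, with a median log2 difference of 0.72. Srebf1, the transcription factor of fatty acid synthesis, averaged 159 FPKM in GW3965 and 21.1 FPKM in Vehicle, a log2 difference of 2.88 ± 0.12, and 2.62 without the 4 libraries. Mylip, a ubiquitin ligase gene, rose by 1.28 ± 0.06, Fasn by 1.61 ± 0.09, and the desaturases Scd1 and Scd2 by 2.52 ± 0.17 and 2.48 ± 0.07. Rnf145, a ubiquitin ligase of the endoplasmic reticulum, rose by 0.72 ± 0.05. Without the 4 libraries the log2 differences were 1.39 for Mylip, 1.82 for Fasn, 2.82 for Scd1, 2.60 for Scd2 and 0.68 for Rnf145. The receptor gene Nr1h3 was called higher by 0.44 ± 0.13, with an adjusted p of 0.0440, but its log2 difference was 0.10 without the 4 libraries, with an adjusted p of 0.517. Smpdl3a, Cd5l, Lpl and Mertk were not called, with log2 differences of 0.14, 0.42, 0.31 and 0.07. With the 4 libraries left out 7 of 11 were again called higher, among them Lpl, at 0.73 with an adjusted p of 0.000562.

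Apoc1, the neighbour of Apoe and another apolipoprotein, was below the filter on low values and had no test. It had 0.993 to 1.51 FPKM in the 5 GW3965 libraries and at most 0.374 FPKM in the 15 others, so its groups did not overlap. The receptors themselves were expressed, with Nr1h2 at 19.2 FPKM in GW3965, 17.8 FPKM in 25HC3S, 19.9 FPKM in 25HC and 14.8 FPKM in Vehicle. Nr1h3 had 3.65, 3.00, 3.09 and 2.51 FPKM in the same order. Of 11 tested receptor and cofactor genes, Nr1h3 was the 1 called in GW3965 against Vehicle.

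Genes near the 6 in function were counted by list. Among genes of cholesterol handling, those higher in GW3965 than in Vehicle included the sterol transfer protein gene Gramd1b (0.61 ± 0.08), Npc2 of the lysosome (0.61 ± 0.15) and the lipoprotein receptor gene Scarb1 (0.59 ± 0.11), at 0.70, 0.18 and 0.37 without the 4 libraries. Of 20 tested genes of phospholipid remodelling, 7 were higher and 0 lower, among them Scd1, Scd2, Fads2 (2.25 ± 0.12), Acsl3 (1.37 ± 0.09) and Fads1 (1.17 ± 0.14), which desaturate or activate fatty acids. Leaving the 4 libraries out, 6 of the 20 were higher and 1 lower, and Fads2, Acsl3 and Fads1 were at 2.26, 1.60 and 1.24. Of 15 tested genes listed as relatives of the 6 by sequence or name, the lipocalin gene Apod (1.32 ± 0.14) and Lbp (0.77 ± 0.19), a relative of Pltp, were higher and Abca9 (-0.51 ± 0.14) was lower. Without the 4 libraries Lbp was at 0.18 and Abca9 at -0.15, with adjusted p of 0.414 and 0.200, so Apod was the 1 of these 3 that held. Of 19 tested enzymes of cholesterol synthesis, 18 were higher in GW3965, with a median of 0.81, and 19 without the 4 libraries, with a median of 0.83.

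25HC against Vehicle asks what the free oxysterol, itself known as an LXR ligand, does to the same genes. Of the 6 genes 1 was called, Abca1, and it was lower in 25HC. Over all genes tested 0.0392% were called, and 0.00784% as lower, which is Abca1 alone of 12752. Abca1 had 5.50, 5.70, 5.89, 6.76 and 5.97 FPKM in 25HC, against 8.53, 11.3, 13.8, 14.0 and 8.60 FPKM in Vehicle. Every 25HC library was under every Vehicle library, as for 0.918% of all genes tested, and so also under Vehicle replicates 1 and 5. The log2 difference was -0.79 ± 0.13, with an adjusted p of 0.0240, and -0.46 ± 0.06 without the 4 libraries, with an adjusted p of 0.0191, where Abca1 was again the 1 gene called lower (0.00784%).

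The Abca1 call in 25HC was near the threshold. It was lost with no filter on low values (adjusted p = 0.0562), with the replicate number as a block (0.0834) and when only these groups were fitted (0.340). It was also lost without Vehicle replicate 2 (0.0739), 3 (0.0639) or 4 (0.0768), and without 25HC replicate 1 (0.0931), 2 (0.0948), 3 (0.0925) or 5 (0.0870). The difference itself was between -0.87 and -0.71 when any 1 library was left out.

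For the other 5 genes 25HC gave no call. Abcg1 had 1.39, 1.28, 1.56, 1.59 and 1.47 FPKM in 25HC, a log2 difference of -0.22 with a 95% interval of -0.48 to 0.04, and its groups overlapped. Lpcat3 had 12.9 to 16.0 FPKM and Arl4c 7.00 to 7.57 FPKM in 25HC. Their log2 differences were 0.09 (interval -0.12 to 0.31) and -0.07 (interval -0.21 to 0.07), which bound any change to less than that of GW3965. Apoe had 40.2 to 48.7 FPKM and Pltp 31.0 to 36.9 FPKM in 25HC, and Vehicle replicates 1 and 5 had 43.7 and 48.3 FPKM Apoe and 34.0 and 34.0 FPKM Pltp, between the lowest and the highest 25HC library. Their log2 differences of 1.39 and 0.70 with all libraries, adjusted p 0.152 and 0.147, were -0.03 and 0.01 without the 4. Pltp was called higher when Vehicle replicate 1 (adjusted p = 0.0359) or 5 (0.0418) was left out, which leaves the 3 low libraries and 1 other in Vehicle. In these fits 1445 and 1148 of the 12752 genes tested were called higher, against 4 with all libraries.

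Of the other LXR targets 0 of 11 were called, and Srebf1 had 26.5 FPKM in 25HC and 21.1 FPKM in Vehicle, with an adjusted p of 0.147. None of the 20 phospholipid genes and none of the 15 relatives was called in limma, where 3863 of all genes tested had an unadjusted p under 0.05. Of 18 tested genes of cholesterol handling 1 was called higher. Of 19 enzymes of cholesterol synthesis 1 was called higher, with a median of 0.27. Over all genes tested 0.0314% were called higher. Without the 4 libraries these lists had 0 and 1 called higher, where 0.0157% of all genes tested were.

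The same question was put for the sulfated sterol, 25HC3S against Vehicle. None of the 6 genes was called with all libraries, where 1.61% of all genes tested were and 2183 had an unadjusted p under 0.05. Abcg1 came nearest. It had 4.75, 2.60, 3.26, 2.31 and 2.42 FPKM in 25HC3S, against 1.83, 1.36, 1.94, 2.48 and 1.79 FPKM in Vehicle. The groups overlapped through Vehicle replicate 4, the highest of its group, which lay above 25HC3S replicates 4 and 5. The log2 difference was 0.48 ± 0.12, with an adjusted p of 0.0555.

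Without the 4 libraries Abcg1 was called higher in 25HC3S, by 0.37 ± 0.08 with an adjusted p of 0.0186, where 1.33% of all genes tested were called higher. The call also came without Vehicle replicate 1 (0.0486) or 4 (0.0309) and without 25HC3S replicate 1 (0.0499) or 4 (0.0462). It came as well with a pseudocount of 0.1 (0.0484), with values rescaled to TPM (0.0250), with limma-voom on fragments (0.0351) and with library weights (0.00280). It did not come when only these groups were fitted (0.737), with no filter on low values (0.109), with the replicate block (0.0863) or after scaling by median ratio (0.0681). In the fits without 1 library that gave the call, 339, 37, 181 and 25 of all genes tested were called higher, in the order given. There were 54 with the pseudocount, 68 with TPM, 51 with limma-voom and 283 with library weights.

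For Abca1 the 25HC3S libraries had 13.1, 9.42, 8.81, 7.91 and 8.55 FPKM, and replicate 1, the highest, is the library that stands apart. Its log2 difference to Vehicle was -0.21 (interval -0.48 to 0.07), and 0.01 (interval -0.12 to 0.15) without the 4 libraries. Lpcat3 had 14.5 to 16.2 FPKM and Arl4c 7.11 to 8.70 FPKM in 25HC3S, with log2 differences of 0.17 (interval -0.05 to 0.38) and -0.02 (interval -0.16 to 0.13). Neither was called.

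Apoe had 10.1, 43.4, 38.6, 41.2 and 35.9 FPKM in 25HC3S, and Pltp had 14.4, 29.5, 27.7, 28.5 and 29.8 FPKM. Replicate 1 was far under the other 4 for both. With all libraries the log2 differences to Vehicle were 0.83 ± 0.60 for Apoe and 0.27 ± 0.26 for Pltp, and without the 4 they were -0.21 ± 0.08 and -0.23 ± 0.07, with adjusted p of 0.202 and 0.0929. In these libraries the macrophage markers summed to 692 to 837 FPKM in 25HC3S and to 991 and 1176 FPKM in Vehicle, and 9 of 15 were called lower and 1 higher, where 2.63% of all genes tested were called lower. Their part in the Apoe and Pltp values was not tested.

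Outside the 6, Rnf145 rose in 25HC3S against Vehicle, by 0.64 ± 0.05 with an adjusted p of 7.98e-07, and had 14.1 FPKM in 25HC3S, close in value to its 15.0 FPKM in GW3965. Scd1 fell by 0.92 ± 0.17, with an adjusted p of 0.00621, and the other 9 of 11 tested LXR targets were not called. With the 4 libraries left out Rnf145 was at 0.62 and Scd1 at -0.75, and 1 of the 11 was higher and 2 lower. Srebf1 had 21.4 FPKM in 25HC3S and 21.1 FPKM in Vehicle. Of the genes of cholesterol handling, Stard4 (-0.74 ± 0.11), which carries sterols between membranes, was lower, at -0.43 without the 4 libraries. Of 20 phospholipid genes, Lpcat1 (0.36 ± 0.06), another lysophosphatidylcholine acyltransferase, was higher and Acsl3, Fads2 and Scd1 were lower, and without the 4 libraries 2 were higher and 3 lower. Of the 19 enzymes of cholesterol synthesis 11 were lower and 0 higher, with a median of -0.47, and 15 were lower without the 4 libraries, with a median of -0.57.

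**Figure D4:**
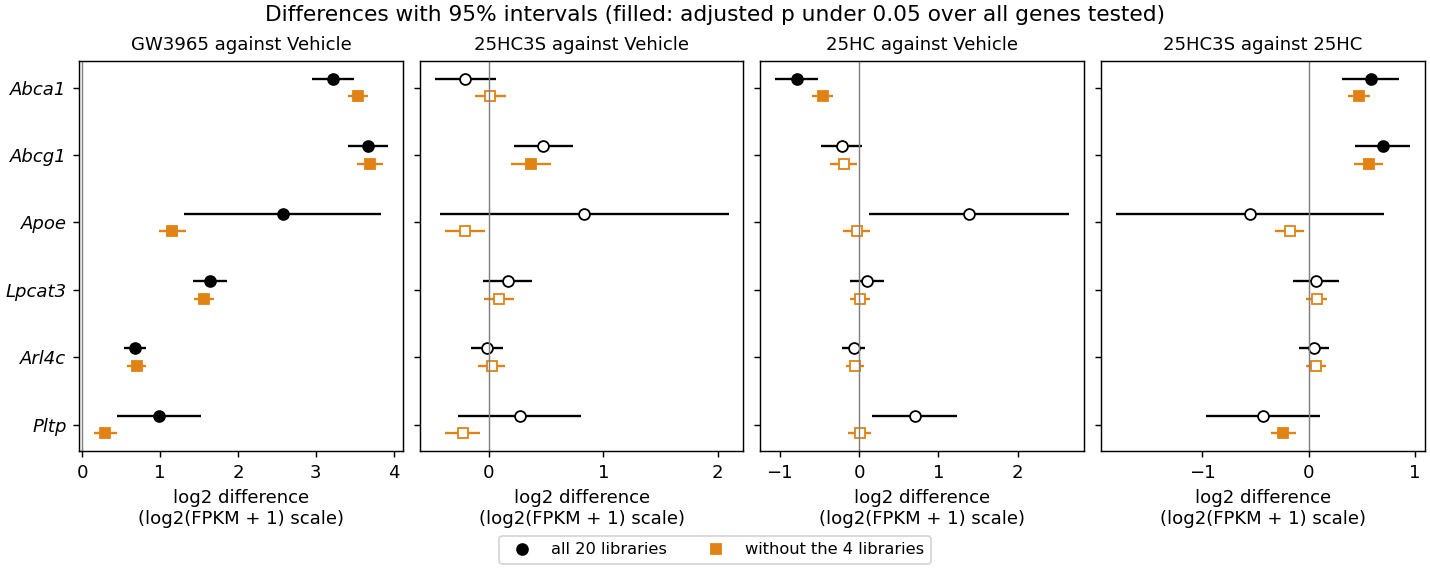
Log2 differences on the log2(FPKM + 1) scale with 95% intervals for the 6 genes in 4 comparisons, with all 20 libraries (black circles) and without the 4 libraries that stand apart (orange squares); filled symbols passed an adjusted p of 0.05. All 6 lie right of 0 in GW3965 against Vehicle, Abca1 lies left of 0 in 25HC against Vehicle, and Apoe and Pltp change most when the 4 libraries are left out.

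25HC3S and 25HC were given at the same 20 µM for the same 48 hours and differ by the sulfate at position 3, so they can be set against each other directly. Both exporters were higher in 25HC3S, and none of the 6 genes was called lower with all libraries. Over all genes tested 0.816% were called, and 0.157% as higher. Abca1 had 13.1, 9.42, 8.81, 7.91 and 8.55 FPKM in 25HC3S, against 5.50, 5.70, 5.89, 6.76 and 5.97 FPKM in 25HC. Every 25HC3S library was above every 25HC library, also without replicate 1. The log2 difference was 0.58 ± 0.13, with an adjusted p of 0.0366, and 0.47 ± 0.05 without the 4 libraries, with an adjusted p of 1.90e-05.

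For Abcg1 the difference was larger. It had 4.75, 2.60, 3.26, 2.31 and 2.42 FPKM in 25HC3S, against 1.39, 1.28, 1.56, 1.59 and 1.47 FPKM in 25HC. The groups again did not overlap, as for 3.27% of all genes tested in this direction. On the log2 scale Abcg1 was higher by 0.70 ± 0.12, with an adjusted p of 0.00539, and 0.56 ± 0.06 without the 4 libraries, with an adjusted p of 4.59e-05, where 2.49% of all genes tested were called higher. The mean in 25HC3S was 2.10-fold that in 25HC, and 1.82-fold without replicate 1 of 25HC3S.

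The Abcg1 call held under all 9 other settings and all 10 fits that left out a library. The Abca1 call with all libraries did not hold as well. It was lost with no filter on low values (0.0796), with the replicate block (0.0891), without 25HC replicate 1 (0.115), 2 (0.0810), 3 (0.102), 4 (0.0517) or 5 (0.0860), and without 25HC3S replicate 1 (0.0933), 2 (0.0881), 3 (0.0644) or 5 (0.0573). Its log2 difference stayed between 0.47 and 0.64 in those fits.

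Pltp ran the other way. All 5 25HC3S libraries, at 14.4 to 29.8 FPKM, were under all 5 25HC libraries, at 31.0 to 36.9 FPKM, as for 4.02% of all genes tested. The log2 difference was -0.43 ± 0.26 with an adjusted p of 0.823 with all libraries, and 0.300 when only these groups were fitted. That ± 0.26 is shared by all 4 groups, Vehicle among them. Without the 4 libraries the difference was -0.24 ± 0.06 with an adjusted p of 0.0158, where 4.7% of all genes tested were called lower. Apoe had log2 differences of -0.56 ± 0.60 and -0.18 ± 0.06, with adjusted p of 0.841 and 0.108, and its groups overlapped. The macrophage markers summed to 440 to 837 FPKM in 25HC3S and 816 to 1167 FPKM in 25HC. With the 4 libraries left out 10 of 15 were called lower in 25HC3S and 1 higher, Cd14. Their part in the Pltp difference was not tested.

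Lpcat3 and Arl4c gave no call between the oxysterols. Their log2 differences of 25HC3S against 25HC were 0.07 (interval -0.14 to 0.29) and 0.05 (interval -0.09 to 0.19), and without the 4 libraries 0.07 (interval -0.03 to 0.18) and 0.07 (interval -0.02 to 0.17). Of the other LXR targets, Rnf145 was higher in 25HC3S by 0.59 ± 0.05 and Scd2 lower by 0.49 ± 0.07, and 9 of 11 were not called, while without the 4 libraries 1 was higher and 5 lower. Of the enzymes of cholesterol synthesis, 14 of 19 were lower and 0 higher, with a median of -0.72, and 18 were lower without the 4 libraries, with a median of -0.70. Of the genes of cholesterol handling Stard4 (-0.72 ± 0.11) was lower, at -0.74 without the 4 libraries.

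The proportion of the exporters to each other is given as a description, with no test and no comparison with other gene pairs. The ratio of Abcg1 to Abca1 FPKM within a library was 0.294 to 0.338 in GW3965, 0.276 to 0.370 in 25HC3S, 0.224 to 0.265 in 25HC and 0.121 to 0.214 in Vehicle. Every GW3965 and 25HC3S library lay above all libraries of 25HC and Vehicle. Every 25HC library lay above Vehicle, but narrowly. The lowest 25HC ratio, 0.224 in replicate 2, rested on 95 Abcg1 fragments. The highest Vehicle ratio, 0.214 in replicate 1, rested on 141, so counting error alone could reorder these libraries. In Vehicle replicates 1 and 5 the ratio came from levels of 8.53 and 8.60 FPKM Abca1 and 1.83 and 1.79 FPKM Abcg1.

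**Figure D5:**
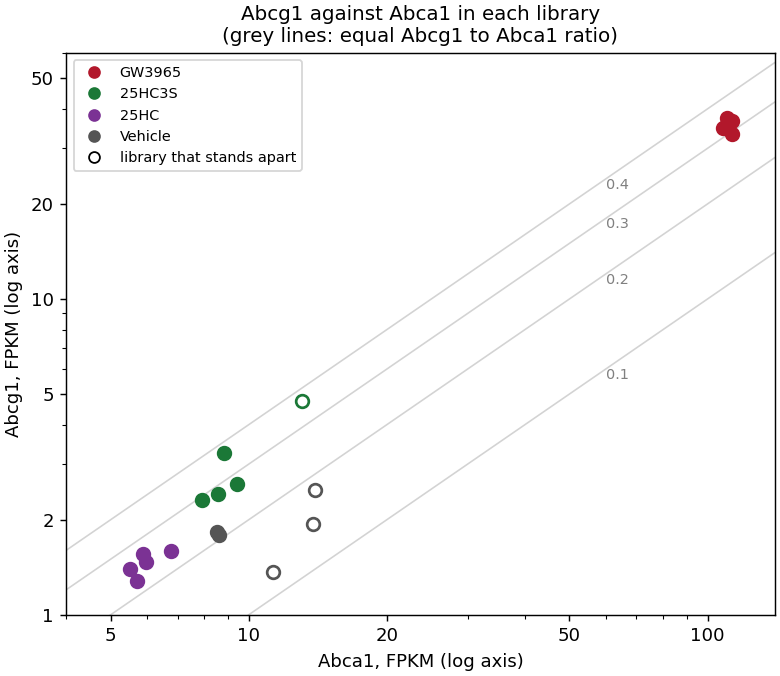
Abcg1 against Abca1 in FPKM on log axes, a point for each library, coloured by group and open for the 4 libraries that stand apart; grey lines mark equal Abcg1 to Abca1 ratios of 0.1, 0.2, 0.3 and 0.4. GW3965 libraries form a group at 108 to 113 FPKM Abca1, and at the low end 25HC3S lies above 25HC for both genes, while Vehicle lies at lower ratios than either.

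The order of levels was set with the same fit, with GW3965 at 2 µM and the oxysterols at 20 µM. GW3965 was highest for all 6. It was called above 25HC3S and above 25HC for Abca1, Abcg1, Lpcat3 and Arl4c, where 2.51% and 0.847% of all genes tested were called higher, and without the 4 libraries for all 6, where 9.27% and 6.3% were. Below GW3965, mean Abca1 was 9.55 FPKM in 25HC3S, 5.96 FPKM in 25HC and 11.2 FPKM in Vehicle, and of the neighbours in level 25HC3S and Vehicle did not differ beyond their spread (adjusted p = 0.403). Mean Abcg1 was 3.07 FPKM in 25HC3S, 1.46 FPKM in 25HC and 1.88 FPKM in Vehicle, and neither 25HC3S nor 25HC was called against Vehicle, which lay between them. For Lpcat3, Arl4c, Apoe and Pltp no pair among 25HC3S, 25HC and Vehicle was called with all libraries. The spread of a gene in these fits is shared by all 4 groups. Apoe in GW3965 was not called above 25HC with all libraries (adjusted p = 0.747). Every GW3965 library was above every 25HC library for it, as for 5.4% of all genes tested.

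Over the 6 genes the coefficient of variation within a group was 1.89% to 8.16% in GW3965, 4.18% to 40.1% in 25HC3S, 3.34% to 8.68% in 25HC and 11.7% to 81.1% in Vehicle. Apoe had the highest value in both 25HC3S and Vehicle. With the 4 libraries that stand apart left out it was 3.35% to 16.1% in 25HC3S and 0.17% to 7.12% in Vehicle, there over replicates 1 and 5 only. In Vehicle replicates 3 and 4 Abca1 was above and Apoe and Pltp were below the levels of replicates 1 and 5.

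The genes outside the 6 with the most similar pattern were found by Pearson's r of log2(FPKM + 1) over the 20 libraries, as a description. These libraries share their groups, and for all of the 6 but Pltp the GW3965 libraries lie apart from the rest. Such an r therefore holds the step between them. It also holds the spread of the 4 libraries that stand apart. For Apoe with Pltp, r within groups was 0.85 over the 20 libraries and -0.06 over the other 16. Mylip was nearest to Abca1 (r = 0.99), Abcg1 (0.98) and Arl4c (0.95). Fasn was nearest to Lpcat3 (0.96) and second for Abca1 and Abcg1 (both 0.97). Apoe was most like Pmvk (0.99), an enzyme of cholesterol synthesis, and Vegfa (0.98), and Pltp most like Pla1a, Cd81 and Tmem141 (all 0.97). Pmvk had 8.63 FPKM in GW3965, 3.23 FPKM in 25HC3S, 4.96 FPKM in 25HC and 2.99 FPKM in Vehicle. Within groups and over the 16 other libraries r was 0.31 for Mylip with Abca1, -0.17 for Mylip with Abcg1, -0.48 for Mylip with Arl4c, -0.26 for Fasn with Lpcat3, 0.34 for Pmvk with Apoe and 0.39 for Pla1a with Pltp, so the likeness over 20 libraries was not seen within groups for all pairs.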

How the data were processed

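The authors deposited a table of FPKM for 54532 genes with coordinates and gene lengths. The submitters' processing notes name CASAVA 1.8 and HISAT2 2.0.5, and no counting program, strand setting or build is given in the sources used here. Gene IDs matched GENCODE M21 (GRCm38) for 99.77%, of which 98.33% had the same coordinates, as did 5 of the 6 genes (all but Abcg1). FPKM times gene length gave whole fragments within 0.02 for 100% of values; such counts are PCR fragments and describe counting error only. One mean per group was fitted with limma 3.58.1 in R 4.3.3 to log2(FPKM + 1) of all 20 libraries, with empirical Bayes moderation along a trend, for genes of at least 1 FPKM in at least 5 libraries. FPKM are not counts, so no count model was the main test. The steps were tested on simulated data. Standard errors and 95% intervals are of the model, and SDs are over libraries. The model has 1 spread per gene, shared by all 4 groups, so libraries outside a comparison also set its standard error and p. Libraries sharing a replicate number were not paired in the main fit, and a replicate block was fitted as another setting. Same-numbered libraries had r from -0.70 to 0.27, above 0.1 in 4 of 30 pairs. These r cannot show whether a number marks shared animals or batches. The members, lists and the rule naming them (the 6 genes, called genes of each list, the 3 most similar genes) were chosen with earlier results of these data known. Some genes of the lists are not reported here. Figures were drawn with matplotlib 3.10.9.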

Additional observations from a re-analysis of the deposited data

Results flagged for a closer look

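Of the 24 sets of 5 libraries (6 genes in 4 groups), 3 held a library far from the other 4, where chance flags about 1 in 20. Apoe in 25HC3S replicate 1 had 10.1 FPKM, with the nearest of the others at 35.9 FPKM. Pltp in the same library had 14.4 FPKM, with the nearest at 27.7 FPKM. Lpcat3 in Vehicle replicate 2 had 9.15 FPKM, with the nearest at 14.4 FPKM. All 3 values belong to libraries that stand apart in their number of genes with 1 fragment.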

How the results depend on the processing

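Of 684 values of the 6 genes recomputed under other settings, 616 kept their direction and side of the threshold, 30 lost a call, 24 gained a call and 14 changed sign. In GW3965 against Vehicle all 6 genes kept their direction in each setting. Of the 6, 4 were called when only these groups were fitted, 5 with no filter on low values and 6 in the other 7 settings. Over all genes tested 84, 325 and 278 to 611 were called higher there, in the same order. In 25HC against Vehicle 0 of the 6 were called with no filter on low values, with a replicate block or when only these groups were fitted. Among all genes tested 4, 1 and 1 were called higher in these settings and 0 lower. In 25HC3S against Vehicle 1 of the 6 was called higher with a pseudocount of 0.1, without the 4 libraries and after rescaling to TPM. The same held with limma-voom on fragments and with library weights. Of all genes tested 54, 169, 68, 51 and 283 were called higher, in that order. In 25HC3S against 25HC 1 of the 6 was called higher with no filter and 1 with the replicate block. There 13 and 11 of all genes tested were called higher. Leaving out a library, 0 to 2 of the 6 were called in 25HC against Vehicle and 0 to 1 in 25HC3S against Vehicle. The count was 5 to 6 in GW3965 against Vehicle, 1 to 2 in 25HC3S against 25HC, and 4 in GW3965 against either oxysterol. Over all genes tested, those called higher numbered 1 to 1445, 23 to 339, 233 to 1820 and 5 to 11, in the same order. They numbered 82 to 90 in GW3965 against 25HC and 233 to 278 in GW3965 against 25HC3S. Those called lower in 25HC against Vehicle numbered 0 to 1214. The replicate block ended the Abca1 calls of 25HC against Vehicle (adjusted p = 0.0834) and 25HC3S against 25HC (0.0891). Same-numbered libraries correlated above 0.1 in 4 of 30 pairs, with r from -0.70 to 0.27. Both ends of this range were Vehicle with 25HC3S, the groups that hold the libraries that stand apart. These r therefore cannot show whether a number marks shared animals or batches. Without the 4 libraries Apoe in 25HC against Vehicle was -0.027, and in 25HC3S against Vehicle Abca1 was 0.014, Apoe -0.21, Arl4c 0.023 and Pltp -0.23. With library weights Apoe was -0.16, Arl4c 0.016 and Pltp -0.19 in 25HC3S against Vehicle. Arl4c there was 0.033 after rescaling to TPM and 0.030 with limma-voom. With 1 library left out it lay between -0.065 and 0.0385 (without Vehicle replicate 4), and Lpcat3 in 25HC against Vehicle between -0.037 (without Vehicle replicate 2) and 0.15. None of these sign changes concerned a called value, and the cause was not tested. Depth limits Abcg1 most, with 80 fragments in 1 Vehicle library.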
